A study of Mus musculus with 4 samples.

Results

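The nuclear receptors are a family of transcription factors, most of which bind small lipophilic ligands, and their mRNAs were followed here in brown fat of Sox4f/f mice and of mice labelled as carrying a conditional deletion of Sox4. The genes were chosen by name, as the mouse nuclear receptor genes, and all 46 of them were present among the 55387 rows of the deposited expression files. Of these, 32 had an averaged expression above 1 FPKM in at least one genotype and were tested for a genotype difference, 14 did not reach that level, and 6 of the 14 were listed at 0 in every library. FPKM counts fragments relative to transcript length and to the mapped fragments of the library, so levels of different genes are comparable per length.

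RNA sequencing was performed on brown adipose tissue (BAT) of 4 male mice aged 15 weeks on a C57BL/6 background, with 1 library per mouse. Both genotypes carried floxed Sox4 alleles. The 2 Sox4f/f mice, called WT in the sample labels, were the controls, and the 2 littermates labelled Sox4-MKO carried a Cre recombinase under control of Myf5 in addition. Myf5 is active in the precursors of both brown adipocytes and skeletal muscle, so the deletion is not restricted to brown fat, and whole tissue holds cells from outside that lineage in which Sox4 stays intact. The labels name no ligand, drug or cold exposure. They give a daily light and dark cycle but not the hour at which tissue was taken, and call the cells adipocytes although whole tissue was used. Values are given for mouse 1 and then mouse 2 of each genotype, Sox4f/f first.

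Nuclear receptors read the metabolic state of a cell: a ligand such as a fatty acid, an oxysterol, thyroid hormone or retinoic acid alters the receptor's shape, coregulator proteins are exchanged, and target genes are switched on or off. Many of them bind DNA as heterodimers with a retinoid X receptor (RXR), and some, such as the estrogen-related receptors (ERRs) and the NR4A group, are thought to act without a classical ligand and are set largely by their own abundance and by their coactivators. In brown fat, PPARγ drives adipocyte formation, PPARα and the ERRs support fatty acid oxidation and mitochondrial genes, thyroid hormone receptors mediate the thermogenic response to T3, and the REV-ERBs link the program to the circadian clock.

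The depth estimated from the lowest FPKM values was between 12100000 and 16300000 fragments per library, at which 1 fragment on a 2-kb transcript corresponds to 0.031 to 0.041 FPKM. Sox4 itself was at 1.98 and 1.06 FPKM in Sox4f/f mice, against 0.98 and 3.06 FPKM under the Sox4-MKO label (log2 fold change 0.20 ± 0.43 SE, adjusted p = 0.843, limma). Sox4 was thus not lower there as a group, as Sox4-MKO mouse 1 lay below both Sox4f/f mice and mouse 2 above both. The study reported strongly reduced SOX4 protein in BAT of other, younger Sox4-MKO mice, which these RNA values do not measure. Every direction given here is between labelled groups. As a sum, brown adipocyte markers were abundant in all 4 libraries, as the tissue label requires. They summed to 8277 and 8087 FPKM in Sox4f/f and 4275 and 4980 FPKM in Sox4-MKO mice 1 and 2. Elovl3 among them, picked with its values in view, was at no more than 3.24 FPKM in any library. Of these 8 markers, 5 were lower. Other cell types also moved with the labels. The 10 skeletal muscle markers summed to 195 and 656 FPKM against 12309 and 2263 FPKM, with 9 of them higher. The 6 macrophage markers summed to 123 and 193 against 259 and 266 FPKM, with 4 higher, and the 5 fibroblast and progenitor markers to 165 and 202 against 378 and 362 FPKM, with all 5 higher. Among the 6 general adipocyte markers 0 were lower and 1 was higher, among the 5 endothelial markers 1 was lower, among the 5 smooth muscle and pericyte markers 1 was higher, and 0 were called among 4 Schwann cell and 2 lymphocyte markers tested. The 3 liver markers summed to at most 1.79 FPKM. No marker gene was at 0 in all libraries. Without Sox4f/f mouse 1, 2 brown adipocyte, 2 muscle and 1 macrophage markers were called, and without Sox4f/f mouse 2 the brown adipocyte markers called were 2. Macrophage markers called were 2 without either Sox4-MKO mouse. In whole tissue, fewer cells of a type and less RNA per cell cannot be told apart, and the part of these markers in the receptor differences was not tested.

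The receptors most abundant in Sox4f/f brown fat were Pparg with 176 ± 29.4 FPKM (SD, n = 2), Ppara with 122 ± 11.0 FPKM and Esrra with 84.6 ± 5.85 FPKM, followed by Thra, Nr1h2 and Nr1d1 at means between 51.0 and 54.1 FPKM. Together the first 3 made up 41.4% and 43.4% of all receptor FPKM in Sox4f/f mice and 34.6% and 40.2% in Sox4-MKO mice. In Sox4f/f mice, 31 receptors had a mean above 1 FPKM, 23 above 5, 21 above 10 and 6 above 50 FPKM. The summed level of the 46 genes was 966 and 842 FPKM in Sox4f/f and 717 and 681 FPKM in Sox4-MKO mice, without overlap between the genotypes. The sum of all rows also fell without overlap, from 578011 and 544564 to 495145 and 472062 FPKM, so part of this drop was not particular to receptors. The REV-ERBs and RORs contributed 142 and 18.2 against 93.6 and 22.9 FPKM, a split between mice of the same genotype.

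**Figure D1:**
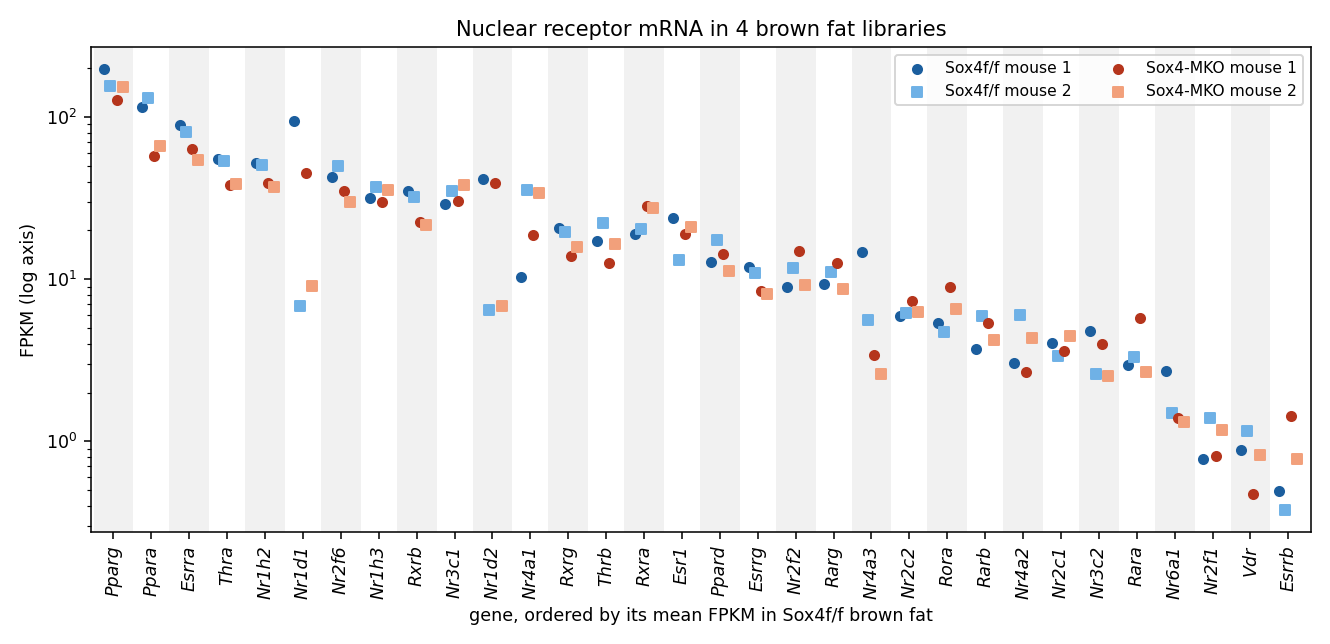
FPKM (log axis) of the 32 tested receptor genes in each of the 4 libraries, 1 point per mouse, ordered by the Sox4f/f mean. Levels span from Pparg at 127 to 197 FPKM down to Esrrb at 0.38 to 1.43 FPKM, and Nr1d1 and Nr1d2 show a wide gap between mice 1 and 2 of the same genotype.

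More receptor genes were lower than higher in the Sox4-MKO libraries. At an unadjusted p under 0.05 in limma, 9 of the 32 tested receptors (28.1%) were lower, namely Thra, Ppara, Nr1h2, Rxrb, Rxrg, Nr2f6, Esrra, Esrrg and Nr4a3, and 1 (3.13%), Rxra, was higher. Over all 12877 tested genes the shares were 8.28% lower and 7.95% higher. No gene of the whole table passed an adjusted p of 0.05, where the lowest value was 0.191 and 2090 genes had an unadjusted p under 0.05. The lowest adjusted p of a receptor was 0.196. The genotypes did not overlap for 13 receptors on the lower side and 4 on the higher side, against 29.6% and 21.7% of all tested genes, and overlapped for the other 15. The median log2 fold change of the 32 receptors was -0.17 and that of all tested genes -0.05, with 20 receptors below 0 and 12 above. The 9 lower receptors were all well expressed. Among genes above 5 FPKM, 9 of 23 receptors (39.1%) were lower beside 986 of 8923 genes (11.1%).

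A fit without a library leaves a single mouse in that genotype, and lower calls over all tested genes fell in each such fit too. The count of called receptors depended on which library was left out. It dropped to 3 lower receptors without Sox4f/f mouse 1 (Nr2f6, Ppara and Rxrb, with 0 higher) and to 4 without Sox4f/f mouse 2, and was 6 without either Sox4-MKO mouse, while leaving out Sox4-MKO mouse 2 gave 4 higher receptors (Esrrb, Rara, Rora and Rxra). Only Ppara and Rxrb passed in all 4 of these fits. When libraries were scaled to a common sum without mitochondrially encoded genes and Ucp1, 7 receptors were lower and 2 higher, beside 746 lower and 1322 higher genes over the whole table, so that 36.1% of all called genes were lower instead of 51.0%.

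**Figure D2:**
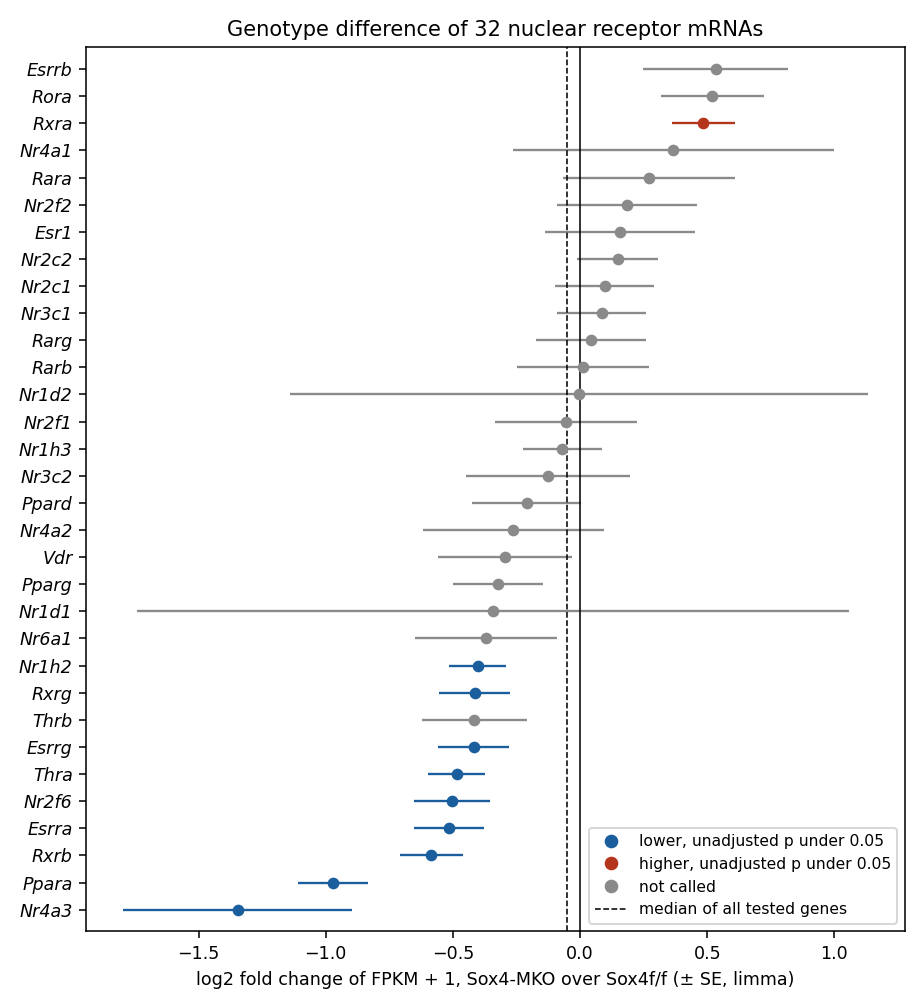
log2 fold change of FPKM + 1 between Sox4-MKO and Sox4f/f (± SE, limma) for the 32 tested receptor genes, with 9 lower genes in blue, 1 higher gene in red and the median of all 12877 genes (-0.05) as a dashed line. Nr4a3 and Ppara have the most negative values at -1.35 and -0.97, and Nr1d1 and Nr1d2 have the widest errors.

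Of the fatty acid sensors, Ppara, the receptor that switches on fatty acid oxidation, was lower in the Sox4-MKO libraries. The study had already shown Ppara as lower in these libraries, along with Ppargc1a and Dio2, which are given below. Ppara was at 115 and 130 FPKM in Sox4f/f mice, against 57.7 and 66.4 FPKM in Sox4-MKO mice, which is 50.7% of the Sox4f/f mean. The genotypes were well separated (log2 fold change -0.97 ± 0.14 SE, adjusted p = 0.196, limma), and leaving out any library gave values between -1.07 and -0.87. Pparg, the master regulator of adipocyte formation, was at 197 and 155 against 127 and 153 FPKM. These groups did not overlap but came within the spread between mice, and Pparg was not called (log2 fold change -0.32 ± 0.18 SE, adjusted p = 0.429). Ppard, a broadly expressed oxidative regulator, was at 12.7 and 17.4 against 14.4 and 11.3 FPKM with overlap. Within each library, the ratio of Ppara to Pparg was 0.58 and 0.84 in Sox4f/f and 0.46 and 0.43 in Sox4-MKO mice. Chosen after its values were seen, the ratio of Ppara to the adipocyte hormone gene Adipoq was 0.12 and 0.16 in Sox4f/f against 0.081 and 0.059 in Sox4-MKO mice, without overlap. The gene occupies chr15:85734983-85802819 (GRCm38, plus strand).

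Among 37 tested targets of the PPARs, 17 were lower and 1 was higher, with a median log2 fold change of -0.39. The 3 with the largest change were Ucp1, the uncoupling protein, Cidea, a lipid droplet protein, and Cpt1b, which carries fatty acids into mitochondria. Cpt1b was at 321 and 347 FPKM in Sox4f/f mice, against 187 and 181 FPKM in Sox4-MKO mice (log2 fold change -0.86 ± 0.11 SE, adjusted p = 0.191, limma). Ucp1 had 1935 and 1814 against 733 and 1105 FPKM, and Cidea 1742 and 1849 against 989 and 984 FPKM. Some genes of this list, Ucp1, Cidea and Cpt1b among them, were shown by the study as brown fat genes in these libraries, so the count is not independent evidence of the direction. It was 7 without Sox4f/f mouse 1 and also 7 without Sox4f/f mouse 2, and 8 under quantile normalization, while 2 were higher without Sox4f/f mouse 1 or Sox4-MKO mouse 1. Brown adipocyte markers, as given above, moved the same way, but Ucp1 and Cidea belong to both lists, so these counts share genes.

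The RXRs, the shared heterodimer partners of the PPAR, thyroid hormone, retinoic acid, LXR and vitamin D receptors, moved in different directions. Rxra was at 18.9 and 20.4 FPKM in Sox4f/f mice, against 28.3 and 27.5 FPKM in Sox4-MKO mice (log2 fold change 0.49 ± 0.12 SE, adjusted p = 0.223, limma). Rxrb was at 35.0 and 32.3 against 22.7 and 21.6 FPKM (log2 fold change -0.58 ± 0.12 SE, adjusted p = 0.210). Rxrg, the isoform typical of muscle and brown fat, was at 20.7 and 19.5 against 13.9 and 15.8 FPKM (log2 fold change -0.42 ± 0.14 SE, adjusted p = 0.269). In none of the 3 genes did the genotypes overlap, and in each the difference exceeded the gap between mice of a genotype. The sign of each was kept under every alternative that used all libraries, with Rxra between 0.46 and 0.55, Rxrb between -0.61 and -0.52 and Rxrg between -0.44 and -0.35. Rxra lost its call without Sox4f/f mouse 1 (0.43). Rxrg lost its call under quantile normalization (-0.39), at a common sum (-0.35) and under the replicate block. Rxrg also lost it without Sox4f/f mouse 1 (-0.38), Sox4f/f mouse 2 (-0.45) or Sox4-MKO mouse 1 (-0.32).

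As a ratio within a library, which no scaling between libraries alters, Rxra over Rxrb was 0.54 and 0.63 in Sox4f/f and 1.25 and 1.28 in Sox4-MKO mice. The most abundant RXR mRNA was therefore Rxrb in both Sox4f/f libraries and Rxra in both Sox4-MKO libraries. Rxra took 25.4% and 28.3% of RXR FPKM in Sox4f/f and 43.7% and 42.4% in Sox4-MKO mice, while Rxrb took 46.9% and 44.7% against 34.9% and 33.2%. The sum of the 3 genes was 74.6 and 72.3 against 64.9 and 64.9 FPKM. These ratios are given without a test. An exact permutation test on 2 against 2 mice cannot give a p below 0.333.

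**Figure D3:**
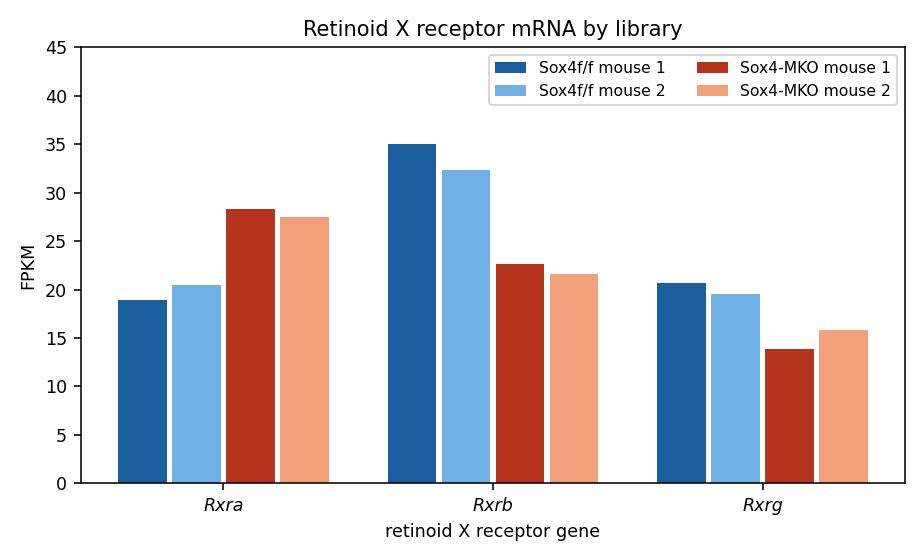
FPKM of Rxra, Rxrb and Rxrg in each of the 4 libraries, 1 bar per mouse. Rxrb is the tallest in both Sox4f/f mice at 35.0 and 32.3 FPKM and Rxra is the tallest in both Sox4-MKO mice at 28.3 and 27.5 FPKM.

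Both well expressed ERRs, which activate mitochondrial and oxidative genes together with PGC-1 coactivators, were lower. Esrra was at 88.7 and 80.4 FPKM in Sox4f/f mice, against 63.8 and 54.2 FPKM in Sox4-MKO mice (log2 fold change -0.52 ± 0.14 SE, adjusted p = 0.231, limma). Esrrg was at 11.9 and 10.9 against 8.47 and 8.09 FPKM (log2 fold change -0.42 ± 0.14 SE, adjusted p = 0.271). Neither overlapped between the genotypes, and the ratio of Esrra to Esrrg stayed between 6.69 and 7.54 in the 4 libraries. Esrra lost its call without Sox4f/f mouse 1 (-0.45) or Sox4f/f mouse 2 (-0.59). Esrrg lost its call with any single library left out (-0.48 to -0.36) and at a common sum. Esrrb, known from pluripotent cells, was at 0.49 and 0.38 against 1.43 and 0.77 FPKM without overlap, close to the limit of 1 FPKM for testing. Esrrb was not called (log2 fold change 0.53 ± 0.29 SE, adjusted p = 0.421, limma). It was higher in Sox4-MKO mouse 1, the library with the highest muscle markers, whose part in this was not tested.

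Of 29 ERR targets, 18 were lower and 1 was higher, with a median log2 fold change of -0.44. The lower genes included Ckb, a creatine kinase, at 66.3 and 65.2 against 31.7 and 27.2 FPKM, and Cox8b, a cytochrome c oxidase subunit, at 3317 and 3181 against 1670 and 2027 FPKM. The higher gene was Ckmt2, a mitochondrial creatine kinase typical of striated muscle, at 2.75 and 9.54 against 224 and 62.3 FPKM. Without Sox4f/f mouse 1 the count of lower genes was 2, without Sox4f/f mouse 2 it was 4, without Sox4-MKO mouse 2 it was 11 (with 3 higher), and under quantile normalization 7. Several mitochondrial genes of this list were displayed by the study for their change in these libraries, and Cox8b is also among the brown adipocyte markers.

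Both PGC-1 coactivators, which dock on PPARs, ERRs and thyroid hormone receptors, were lower. Ppargc1b was at 36.0 and 36.3 FPKM in Sox4f/f mice, against 14.7 and 17.6 FPKM in Sox4-MKO mice (log2 fold change -1.12 ± 0.14 SE, adjusted p = 0.191, limma). Ppargc1a, which is induced by adrenergic signals, was at 48.2 and 22.4 against 13.2 and 14.2 FPKM (log2 fold change -1.21 ± 0.37 SE, adjusted p = 0.254), with the Sox4f/f mice far apart from each other. In the whole list of 32 coactivators 6 were lower and 0 higher, with a median of -0.11. Med12, a subunit of the Mediator kinase module, was at 28.6 and 24.6 against 17.1 and 17.0 FPKM. The count was 2 without Sox4f/f mouse 1 or Sox4-MKO mouse 1, 3 without Sox4-MKO mouse 2 and 4 without Sox4f/f mouse 2, and 3 at a common sum, and 3 coactivators were higher without Sox4-MKO mouse 2. Ncoa1, a steroid receptor coactivator, was not called at 14.8 and 11.5 against 10.2 and 9.86 FPKM.

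Of 25 tested corepressors, 1 was lower (Rcor1, the CoREST scaffold, at 9.65 and 8.87 against 5.60 and 6.37 FPKM) and 1 higher (Tbl1xr1, a subunit of the NCoR complex, at 12.3 and 16.8 against 32.8 and 23.7 FPKM). Over all tested genes 8.28% were lower and 7.95% higher. Both counts were 0 without Sox4f/f mouse 1 or Sox4-MKO mouse 1, the lower one also without Sox4f/f mouse 2, and 2 were higher without Sox4-MKO mouse 2. Ncor1, the scaffold of the corepressor complex, was at 46.0 and 48.9 against 36.6 and 43.5 FPKM. Nrip1, which restrains oxidative genes in fat, was at 11.7 and 6.72 against 9.05 and 14.6 FPKM. Neither was called.

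Thra, the thyroid hormone receptor gene that predominated here, was lower. It was at 54.9 and 53.3 FPKM in Sox4f/f mice, against 38.0 and 38.7 FPKM in Sox4-MKO mice (log2 fold change -0.49 ± 0.11 SE, adjusted p = 0.214, limma). The gap between genotypes was large beside that within them, and the call was lost only without Sox4f/f mouse 1 (-0.47). Thrb was at 17.2 and 22.3 against 12.6 and 16.5 FPKM, without overlap but with a wide spread, and was not called (log2 fold change -0.42 ± 0.21 SE, adjusted p = 0.391). The ratio of Thra to Thrb was 3.19 and 2.39 against 3.01 and 2.35, so it differed between mice 1 and 2 rather than between genotypes. On chromosome 11, Thra and Nr1d1 are transcribed toward each other and share 263 exonic bases in GENCODE M21, 5.70% of those of Thra and 8.55% of those of Nr1d1. Whether the authors' counting used strand is not given in the sources used here. The level of Thra differed by 1.03-fold and 1.02-fold between mice of a genotype, while Nr1d1 differed by 13.9-fold and 5.0-fold.

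Of 18 genes of thyroid hormone supply and response, 3 were lower and 2 higher. The largest changes among the 5 called genes were in Atp2a1, the fast-muscle calcium pump, at 20.7 and 95.5 against 1561 and 233 FPKM, in Me1, the lipogenic malic enzyme, at 128 and 181 against 510 and 423 FPKM, and in Ucp1 as above. Chosen after its values were seen, Dio2, the enzyme that makes T3 within brown fat, was at 51.9 and 42.8 against 10.1 and 33.5 FPKM without overlap and was not called (log2 fold change -1.30 ± 0.56 SE, adjusted p = 0.343, limma). Skeletal muscle markers moved with Atp2a1, and their part in its difference was not tested. Without Sox4-MKO mouse 2 or Sox4f/f mouse 2 the count of higher genes was 4, and without Sox4f/f mouse 1 or Sox4-MKO mouse 1 it was 1.

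Of the oxysterol receptors, Nr1h2 (LXRβ), the ubiquitous form, was lower and Nr1h3 (LXRα), the form of metabolic tissues, was not called. Nr1h2 was at 51.7 and 50.3 FPKM in Sox4f/f mice, against 39.4 and 37.2 FPKM in Sox4-MKO mice (log2 fold change -0.40 ± 0.11 SE, adjusted p = 0.239, limma), without overlap, and lost its call without Sox4f/f mouse 1 (-0.38) or Sox4f/f mouse 2 (-0.42). Nr1h3 was at 31.7 and 37.2 against 30.1 and 35.5 FPKM with overlap (log2 fold change -0.07 ± 0.15 SE, adjusted p = 0.843). Among 14 targets of LXR and FXR, 1 was lower and 3 were higher. Scd2, a fatty acid desaturase, was at 23.7 and 57.5 against 89.2 and 122 FPKM, Pltp, a phospholipid transfer protein, at 26.9 and 35.1 against 45.5 and 45.4 FPKM, and Apoe, an apolipoprotein, at 2177 and 2155 against 1345 and 1414 FPKM. The lipogenic enzyme genes Scd1 and Fasn, named after their values were seen and counted among the 14 as tested and not called, reached 4491 and 652 FPKM in the library of Sox4f/f mouse 1 but were listed at 0 in the other 3. Fasn is also among the 18 thyroid hormone genes. The count of higher genes was 1 without Sox4f/f mouse 1 and 0 without either Sox4-MKO mouse, and that of lower genes 0 and 2 without Sox4f/f mice 1 and 2.

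The orphan receptor Nr2f6 (EAR2), a repressor related to the COUP-TFs, was lower. It was at 42.6 and 49.7 FPKM in Sox4f/f mice, against 34.8 and 29.8 FPKM in Sox4-MKO mice (log2 fold change -0.50 ± 0.15 SE, adjusted p = 0.245, limma). The groups did not overlap, and the call was lost without Sox4f/f mouse 2 or Sox4-MKO mouse 2 (-0.40 each). Its exons share 1622 bases, 54.4% of the total, with Ocel1 on the opposite strand, so its value is uncertain if strand was not used. Ocel1 was at 12.2 and 5.87 against 12.4 and 5.35 FPKM and did not follow the genotype. Nr2f2 (COUP-TFII), which is prominent in mesenchymal and vascular cells, was at 8.90 and 11.7 against 14.9 and 9.22 FPKM with overlap, and Nr2f1 at 0.78 and 1.39 against 0.81 and 1.18 FPKM with overlap. Nr2c1 at 3.35 to 4.45 FPKM and Nr2c2 at 5.92 to 7.35 FPKM over the 4 libraries, the testicular orphan receptors, were not called, and 30.7% of the exonic bases of Nr2c2 are shared with Mrps25 on the opposite strand.

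The REV-ERB genes, Nr1d1 and Nr1d2, which repress transcription in the circadian clock, differed between mice with the same genotype far more than between genotypes. Nr1d1 was at 95.1 and 6.84 FPKM in Sox4f/f mice 1 and 2 and at 45.4 and 9.08 FPKM in Sox4-MKO mice 1 and 2 (log2 fold change -0.34 ± 1.40 SE, adjusted p = 0.917, limma). Nr1d2 was at 41.5 and 6.48 against 39.1 and 6.88 FPKM (log2 fold change -0.01 ± 1.14 SE, adjusted p = 0.999). Mouse 1 was the high animal in both genotypes, by 13.9-fold and 5.0-fold for Nr1d1 and by 6.40-fold and 5.68-fold for Nr1d2. A genotype difference in these genes was not detectable with this spread, and neither gene was called under the replicate block.

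Other clock genes, chosen after their values were seen, split the 4 mice in the same way. The output gene Dbp was at 49.0 and 3.59 FPKM in Sox4f/f mice, against 70.6 and 3.06 FPKM in Sox4-MKO mice, and its relative Tef at 101 and 28.5 against 105 and 29.1 FPKM. Arntl (BMAL1), the clock activator that the REV-ERBs repress, had the opposite pattern with 2.35 and 12.8 against 1.07 and 11.5 FPKM, as had Npas2 with 0.01 and 2.50 against 0.04 and 1.58 FPKM. The ratio of Nr1d1 to Arntl was 40.4 and 42.3 in the mice numbered 1 and 0.53 and 0.79 in the mice numbered 2. The hour of tissue collection is not given in the labels, mouse numbers are not stated to mark a day or litter, and no test was made on this grouping. Of 17 tested clock genes and targets of REV-ERB and ROR, 0 were lower and 0 higher, with limma at an unadjusted p under 0.05. Without Sox4-MKO mouse 1 there were 2 lower, and without Sox4-MKO mouse 2 there were 2 lower and 3 higher. Rora, which activates the same sites that the REV-ERBs repress, did not share the split. It was at 5.38 and 4.73 against 8.94 and 6.56 FPKM, without overlap, and was close to the threshold (log2 fold change 0.52 ± 0.20 SE, adjusted p = 0.315, limma). Rora was called without Sox4-MKO mouse 2 (0.72) and under the replicate block. It was also called at a common median (0.50), a common sum (0.58) or a pseudocount of 0.1 (0.59).

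**Figure D4:**
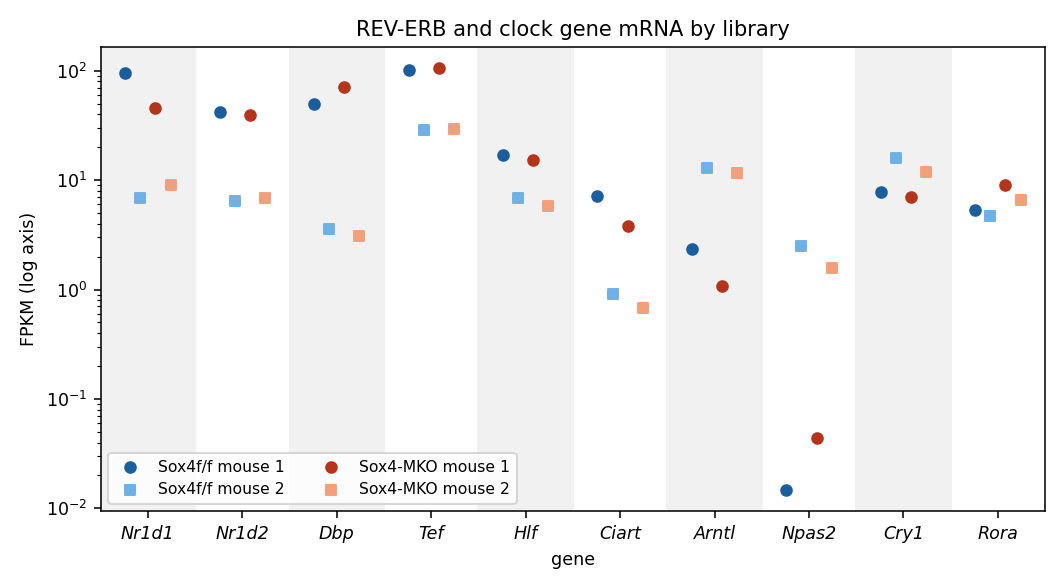
FPKM (log axis) of the REV-ERB genes, other clock genes and Rora in each of the 4 libraries, with circles for mouse 1 and squares for mouse 2 of each genotype. For Nr1d1, Nr1d2, Dbp, Tef, Hlf and Ciart both circles lie above both squares, for Arntl, Npas2 and Cry1 both squares lie above both circles, and Rora does neither.

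The promoters of the REV-ERB genes are shown because both genes followed the same split of the mice. They were taken from RefSeq (GRCm38.p6), 250 bases before the start and without the bases after it, for chr11:98775378-98775627 on the minus strand (Nr1d1) and chr14:18239107-18239356 on the minus strand (Nr1d2). The capitals mark AACGTG in Nr1d1, which is the clock element CACGTT read on the other strand, and in Nr1d2 the nuclear receptor hexamer AGGTCA.
Nr1d1: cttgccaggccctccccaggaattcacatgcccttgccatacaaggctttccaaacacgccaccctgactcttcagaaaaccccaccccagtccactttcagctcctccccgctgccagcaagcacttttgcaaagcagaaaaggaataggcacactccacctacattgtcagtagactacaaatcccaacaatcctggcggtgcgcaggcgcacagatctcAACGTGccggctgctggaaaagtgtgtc
Nr1d2: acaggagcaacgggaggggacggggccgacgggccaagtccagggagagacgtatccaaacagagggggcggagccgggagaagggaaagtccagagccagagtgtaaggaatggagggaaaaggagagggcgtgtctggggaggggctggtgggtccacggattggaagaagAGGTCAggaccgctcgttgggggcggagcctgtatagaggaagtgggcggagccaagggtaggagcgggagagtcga

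Windows of 250 bases before to 50 bases after the start were found for 42 of the 46 receptors, 30 of them tested, and were searched on both strands. None of the motifs contains another. CACGTT was present for 3 of the 30 tested receptors (Nr1d1, Esrrg and Rarg) and for 5.44% of all 27025 genes with a window, and lay 28 bases before the start of Nr1d1. The E-box CACGTG was present for 2 of the 30 (Rara and Thrb) and 8.09% of all genes. AGGTCA was present for 8 of the 30 and 18.1% of all genes, and lay 77 bases before the start of Nr1d2. The SOX core motifs AACAAT and AACAAAG were present for 6 and 2 of the 30 receptors and for 12.2% and 6.68% of all genes, and for 0 of the 8 lower receptors with a window. Of these 8, AGGTCA was present for Rxrg and CACGTT for Esrrg. These are matches of letters within short windows and no binding was measured.

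Of the NR4A receptors, immediate early genes that catecholamines and cAMP induce in brown fat, Nr4a3 (NOR1) was lower. It was at 14.7 and 5.59 FPKM in Sox4f/f mice, against 3.41 and 2.62 FPKM in Sox4-MKO mice (log2 fold change -1.35 ± 0.45 SE, adjusted p = 0.269, limma). Sox4f/f mouse 1 stood apart from the others, and the call was lost without it, at a log2 fold change of -0.72. It was also lost without Sox4-MKO mouse 1 (-1.49) or mouse 2 (-1.20). Nr4a1 (NUR77) was at 10.3 and 35.7 against 18.7 and 33.8 FPKM and Nr4a2 (NURR1) at 3.04 and 6.01 against 2.68 and 4.35 FPKM, with overlap in both. These 2 genes were higher in mouse 2 of each genotype, whereas Nr4a3 was higher in mouse 1 of each. Nr4a3 made up 52.5% and 11.8% of NR4A FPKM in Sox4f/f and 13.7% and 6.42% in Sox4-MKO mice.

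The promoter of Nr4a3 is shown because it holds several copies of TGACG, the core of the cAMP response element, in capitals on either strand (CGTCA on the other). The sequence is that of chr4:48045055-48045304 on the plus strand (RefSeq, GRCm38.p6).
Nr4a3: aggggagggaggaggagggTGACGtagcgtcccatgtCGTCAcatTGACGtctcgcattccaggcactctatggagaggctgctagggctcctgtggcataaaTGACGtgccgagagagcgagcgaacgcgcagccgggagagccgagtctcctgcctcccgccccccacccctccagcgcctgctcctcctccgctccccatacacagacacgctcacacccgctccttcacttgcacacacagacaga
The matches lie 231, 213, 205 and 147 bases before the start. TGACG was present for all 3 NR4A genes, for 13 of the 30 tested receptors with a window and for 23.0% of all genes, and for 4 of the 8 lower receptors (Nr1h2, Nr4a3, Ppara and Rxrb). For Nr4a1 the matches lie 233, 213, 69 and 40 bases before the start, and for Nr4a2 200, 144, 123 and 111 bases before it. Neither of these genes was called.

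Of 21 inducers of the NR4A genes and immediate early genes, 4 were lower and 0 higher, with a median log2 fold change of -0.36. Fosb, an AP-1 subunit, was at 1.23 and 1.61 against 0.23 and 0.21 FPKM, Ier2, an immediate early gene, at 18.4 and 17.9 against 10.5 and 8.85 FPKM, and Jund, another AP-1 subunit, at 73.0 and 134 against 55.8 and 55.7 FPKM. The count was 7 without Sox4f/f mouse 1 and 2 without Sox4f/f mouse 2.

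The steroid receptors did not differ between genotypes beyond their spread. Nr3c1, the glucocorticoid receptor, was at 29.2 and 34.8 FPKM in Sox4f/f mice, against 30.2 and 38.0 FPKM in Sox4-MKO mice (log2 fold change 0.09 ± 0.17 SE, adjusted p = 0.828, limma). Nr3c2, the mineralocorticoid receptor, was at 4.77 and 2.62 against 3.96 and 2.53 FPKM. Esr1, the estrogen receptor α, was at 23.9 and 13.2 against 19.0 and 21.0 FPKM, and its Sox4f/f mice enclosed both others. Of 24 glucocorticoid receptor targets, 3 were lower and 4 higher, with Cebpd, an early adipogenic factor, at 2.68 and 2.99 against 7.72 and 8.78 FPKM and Pik3r1, a regulatory subunit of PI3-kinase, at 26.4 and 23.9 against 39.0 and 50.2 FPKM. Angptl4, an inhibitor of lipoprotein lipase that PPARs also induce, was at 221 and 224 against 112 and 162 FPKM. Without Sox4f/f mouse 1 these counts were 1 and 2, and without Sox4f/f mouse 2 they were 2 and 2. The count of lower genes was also 1 under quantile normalization, at a common sum and with no FPKM limit.

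Of 15 genes of steroid and sterol supply, 0 were lower and 3 higher, with a median log2 fold change of 0.23. Hsd11b1, which regenerates active glucocorticoid, was at 67.9 and 61.0 FPKM in Sox4f/f mice, against 167 and 137 FPKM in Sox4-MKO mice (log2 fold change 1.22 ± 0.15 SE, adjusted p = 0.191, limma). The receptor for its product, Nr3c1, showed no such separation. Dhcr7, the last enzyme of cholesterol synthesis, was at 9.24 and 11.7 against 14.0 and 17.0 FPKM, and Hsd17b12, an acyl-CoA reductase, at 134 and 131 against 163 and 191 FPKM. The count was 1 without either Sox4f/f mouse and 1 at a common median. Fibroblast and progenitor markers were higher in the same libraries, and their part in these differences was not tested.

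The retinoic acid receptors were not called. Rarg was at 9.31 and 11.1 FPKM in Sox4f/f mice, against 12.6 and 8.76 FPKM in Sox4-MKO mice, Rarb at 3.70 and 5.96 against 5.37 and 4.22 FPKM, and Rara at 2.97 and 3.31 against 5.78 and 2.67 FPKM, with overlap in each. Rara was highest in Sox4-MKO mouse 1, and 34.1% of the exonic bases of Rarb are shared with Top2b on the opposite strand. Of 13 tested genes of retinoid supply and response, 1 was lower and 3 higher. Aldh1a1, which makes retinoic acid, was at 7.46 and 6.75 against 60.8 and 31.2 FPKM (log2 fold change 2.46 ± 0.34 SE, adjusted p = 0.196, limma), and Rbp4, the retinol carrier, at 43.4 and 42.4 against 115 and 98.5 FPKM. Dhrs9, a retinol dehydrogenase, was at 11.7 and 12.7 against 0.77 and 5.47 FPKM, and its call was lost without Sox4f/f mouse 1.

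The remaining tested receptors were near the expression limit. Nr6a1, the germ cell nuclear factor, was at 2.73 and 1.49 FPKM in Sox4f/f mice, against 1.40 and 1.32 FPKM in Sox4-MKO mice, and Vdr, the vitamin D receptor, at 0.88 and 1.15 against 0.47 and 0.83 FPKM. Both were without overlap on the lower side and neither was called. Of the 14 receptors that were not tested, Nr1i2, Hnf4a, Hnf4g, Nr2e1, Nr2e3 and Pgr were listed at 0 in all 4 libraries. Esr2, Nr5a1, Nr0b1 and Nr0b2 were above 0 in a single library each, at no more than 0.071 FPKM. Rorb, Nr1h4 and Nr5a2 were between 0.18 and 0.59 FPKM in every library. Nr1i3 was at 0.046 to 0.22 FPKM, while 74.9% of its exonic bases are shared with Tomm40l on the opposite strand at 47.8 to 63.4 FPKM, so even that level is uncertain. An exact 0 in these files can be a failed estimate rather than an absent transcript, since 13 rows were at 0 in at least 1 library and above 100 FPKM in another. No tested receptor was at 0 in any library.

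**Figure D5:**
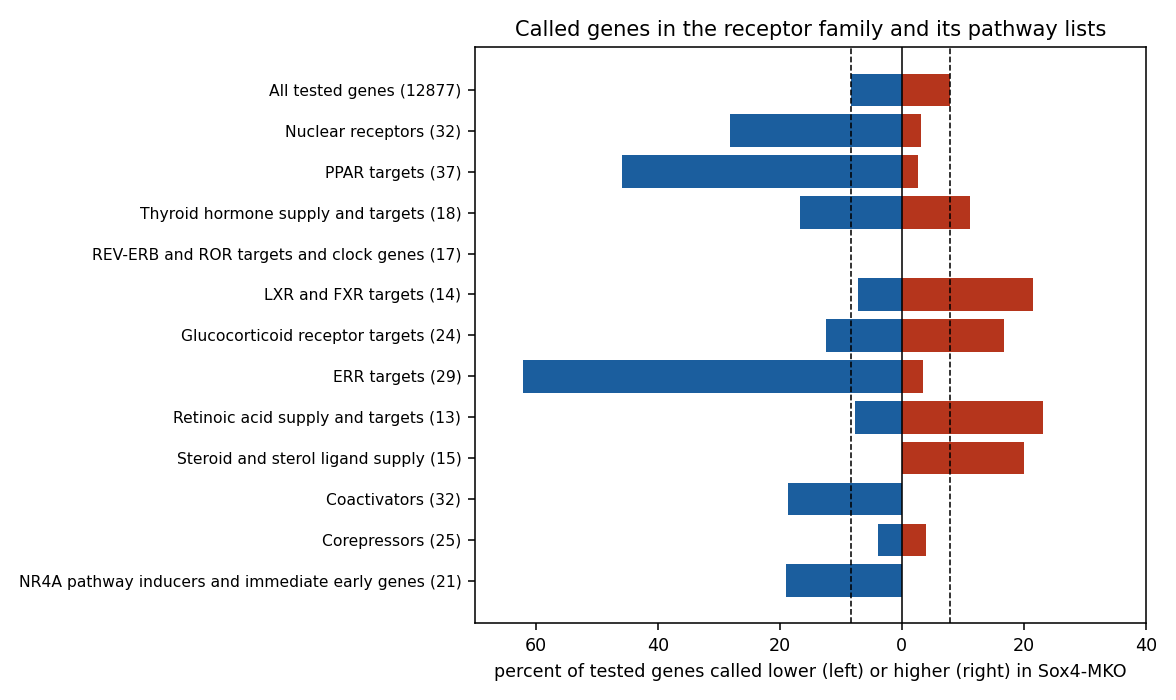
Percent of tested genes called lower (left, blue) or higher (right, red) in Sox4-MKO at an unadjusted p under 0.05, for all genes, the nuclear receptors and the lists of targets, ligand supply and coregulators, with the number tested in brackets and the shares of all genes (8.28% and 7.95%) dashed. The ERR and PPAR target lists extend farthest to the lower side with 18 of 29 and 17 of 37 genes, and the clock list shows no called gene.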

How the data were processed

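RNA sequencing libraries of brown fat from 2 Sox4f/f and 2 Sox4-MKO male mice were compared. The Sox4f/f group was taken from the sample titles and the Sox4-MKO group from the genotype label. The authors deposited 1 FPKM value per gene and library, normalized to transcript length and mapped fragments. The submitters' processing notes name Cufflinks 2.1.1, Cuffdiff and the mm10 build, while aligner, annotation and strand setting are not given in the sources used here. The labels describe column extraction and a stranded kit, whereas the study's methods describe TRIzol and a TruSeq kit.

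limma 3.58.1 (R 4.3.3) was applied to log2(FPKM + 1), with genotype as the sole factor and moderation by a trend on mean expression, so fold changes of low genes are understated. The test covered the 12877 genes whose FPKM averaged over a genotype exceeded 1 in either genotype. A gene was called at a two-sided, unadjusted p under 0.05, the level used in the study's methods. Adjusted p-values are Benjamini-Hochberg over all tested genes. Since the files hold no counts, no count test was made. Depth was estimated from the lowest values of genes with 1 annotated transcript. The code was tested on simulated data.

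Whether mice with the same number deviate together was checked and gave a correlation of -0.01 over all tested genes, so numbers were treated as names, although the clock genes split by number. Each mouse is stated to be a separate animal. The fit was repeated with quantile normalization, with libraries set to a common median or to a common sum that leaves out Ucp1 and mitochondrially encoded genes, with FPKM limits of 0.1, 5 and none, with a pseudocount of 0.1, without the trend, with a replicate block, and without each library in turn. Gene positions and exon overlaps are from GENCODE M21 (GRCm38), promoters from RefSeq (GRCm38.p6). The receptors and the lists of targets, coregulators, ligand supply and markers were chosen with earlier results of these data known. Receptors that belonged to a list were left out of its count. Every receptor above the FPKM limit is named with values, and from each list at most the 3 called genes with the largest change, plus Ppargc1a, Ppargc1b, Nrip1, Ncor1, Ncoa1 and Sox4. A further gene of this rule is not reported here. Other genes carry a remark that they were picked with their values in view. ChIP sequencing of the study was not analysed here.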

Additional observations from a re-analysis of the deposited data

How the results depend on the processing

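With 2 mice per genotype, depth allows genes near 1 FPKM to be seen but not small differences in them, and no gene passed adjustment. Over the alternatives that kept all libraries, 265 of the values of single receptors kept direction and call, 5 gained a call, 4 lost it and 5 changed sign. None of the 5 that changed sign was called: Rarb was -0.0077 at a common median and -0.083 under quantile normalization, Nr1d2 was 0.059 and Nr1h3 0.00019 at a common sum, and Nr2c1 was -0.021 under quantile normalization. The count of higher receptors was 2 (Rxra and Rora) under the replicate block, the common median, the common sum and a pseudocount of 0.1. Lower PPAR targets numbered 8 and lower ERR targets 7 under quantile normalization, and lower coactivators 3 at the common sum. The cause of these shifts was not tested.

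Clock genes split by mouse number, as described above, which a measure over all genes does not exclude for a subset. Over all tested genes together, mice with the same number showed no shared deviation (correlation -0.01, 50.5% with the same sign, 2 pairs), so the replicate block is given only for completeness. With it, 938 genes were lower and 970 higher, and 9 receptors were lower, with Thrb in place of Rxrg, and 5 glucocorticoid receptor targets were lower instead of 3.

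Leaving out each library gave 380 to 1015 lower and 433 to 1443 higher genes, 3 to 6 lower and 0 to 4 higher receptors, 7 to 18 lower PPAR targets, 2 to 20 lower ERR targets and 2 to 4 lower coactivators. In these fits 81 values of single receptors kept direction and call, 18 lost the call, 3 gained it and 26 changed sign, none of the latter in a called receptor. The log2 fold changes then ranged from -0.17 to 0.71 for Rara, -0.27 to 0.29 for Rarb, -0.19 to 0.28 for Rarg, -0.42 to 0.00072 for Ppard, -2.15 to 1.46 for Nr1d1, -1.26 to 1.25 for Nr1d2, -0.19 to 0.046 for Nr1h3, -0.022 to 0.22 for Nr2c1, -0.27 to 0.16 for Nr2f1, -0.14 to 0.50 for Nr2f2, -0.25 to 0.56 for Esr1, -0.075 to 0.25 for Nr3c1, -0.46 to 0.21 for Nr3c2, -0.48 to 1.22 for Nr4a1 and -0.66 to 0.13 for Nr4a2.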
